A study of Mus musculus with 8 samples.

Results

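The complement components and their C1 inhibitor comprised 9 genes in dorsal root ganglia (DRGs) of a Fabry disease mouse model, namely C1qa, C1qb, C1qc, C1ra, C2, C4b, C3, Cfb and Serping1. They were chosen by name, as all non-control probes of the array whose gene name was one of these symbols, which gave 12 of the 55681 probes. All 12 were well above background on each of the 8 arrays and entered the comparison, which covered 29432 probes under 21003 gene names. C1ra, C3 and Serping1 had 2 probes each, and the other 6 genes had 1.

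RNA of lumbar DRGs (L3 to L5), ganglia of sensory neuron somata with satellite glia, Schwann cells and resident macrophages, was profiled on Agilent 1-color arrays. The FD samples came from male α-Gal A(-/0) mice on a C57BL/6 background, which lack the lysosomal enzyme α-galactosidase A, and the wildtype samples from male C57BL/6J mice, all aged 20 to 24 weeks. There were 4 FD and 4 wildtype samples, each pooled from the DRGs of 2 mice. Both groups were bred as separate inbred colonies, so that genotype and colony cannot be told apart. In whole ganglia, fewer cells of a type and less RNA per cell cannot be told apart either.

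Complement is a cascade of plasma and tissue proteins that marks surfaces for removal and recruits immune cells. In the classical pathway, C1q binds a target and the attached proteases C1r and C1s cleave C4 and C2, whose fragments form an enzyme that cleaves C3, while the alternative pathway amplifies this step through factor B. C1 inhibitor, encoded by Serping1, inactivates C1r and C1s, and in nervous tissue C1q and C3 are known for tagging synapses and debris for microglia and macrophages.

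By the brightest probe of each gene, 0 of the 9 members passed an adjusted p under 0.05 in limma, against 3.12% of the 21003 gene names (an adjusted p is corrected over all tested probes by the method of Benjamini and Hochberg, and "called" below means that it is under 0.05). The methods' t-test also called 0 of 9 after adjustment. At an unadjusted p under 0.05, 4 of the 9 members passed in limma, all lower in FD DRGs, and 3 in the methods' t-test. Among all gene names, 17.7% passed in limma and 15.2% in the methods' t-test in either direction, and 7.11% as lower in limma. Over the probes, 1 of 12 was called, a Serping1 probe that was lower in FD DRGs, against 3.07% of all tested probes in either direction, 1.11% lower and 1.96% higher. Of the 12 probes, 7 had an unadjusted p under 0.05 in limma with lower values in FD DRGs, where 6.98% of all tested probes did, and 6 had one in the methods' t-test, where 5.58% did. On 6 of the 12 probes, both probes of C1ra, C3 and Serping1, all 4 FD samples lay below all 4 wildtype samples, as on 5.1% of all tested probes.

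The median log2 fold change of the 9 members (FD minus wildtype, brightest probe) was -0.29, with 7 negative and 2 positive values, beside a median of 0.02 over the 21003 gene names. The members' median ranged from -0.40 to -0.16 when 1 sample was left out, was -0.16 without wildtype 3 and -0.19 without FD 2, and was -0.13 without wildtype 2 and 3 and -0.14 with the slide row as a block. The study's own network of lower genes, made from these samples, held a cluster with serpins and with classical complement activation. Its discussion takes up Serping, C1r, C1s and C3. The direction of these genes here is therefore not independent evidence. FD 2 was the lowest FD sample on 9 of the 12 probes and FD 4 the highest on 8, while wildtype 2 was the highest wildtype sample on 7 and wildtype 4 the lowest on 6.

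**Figure D1:**
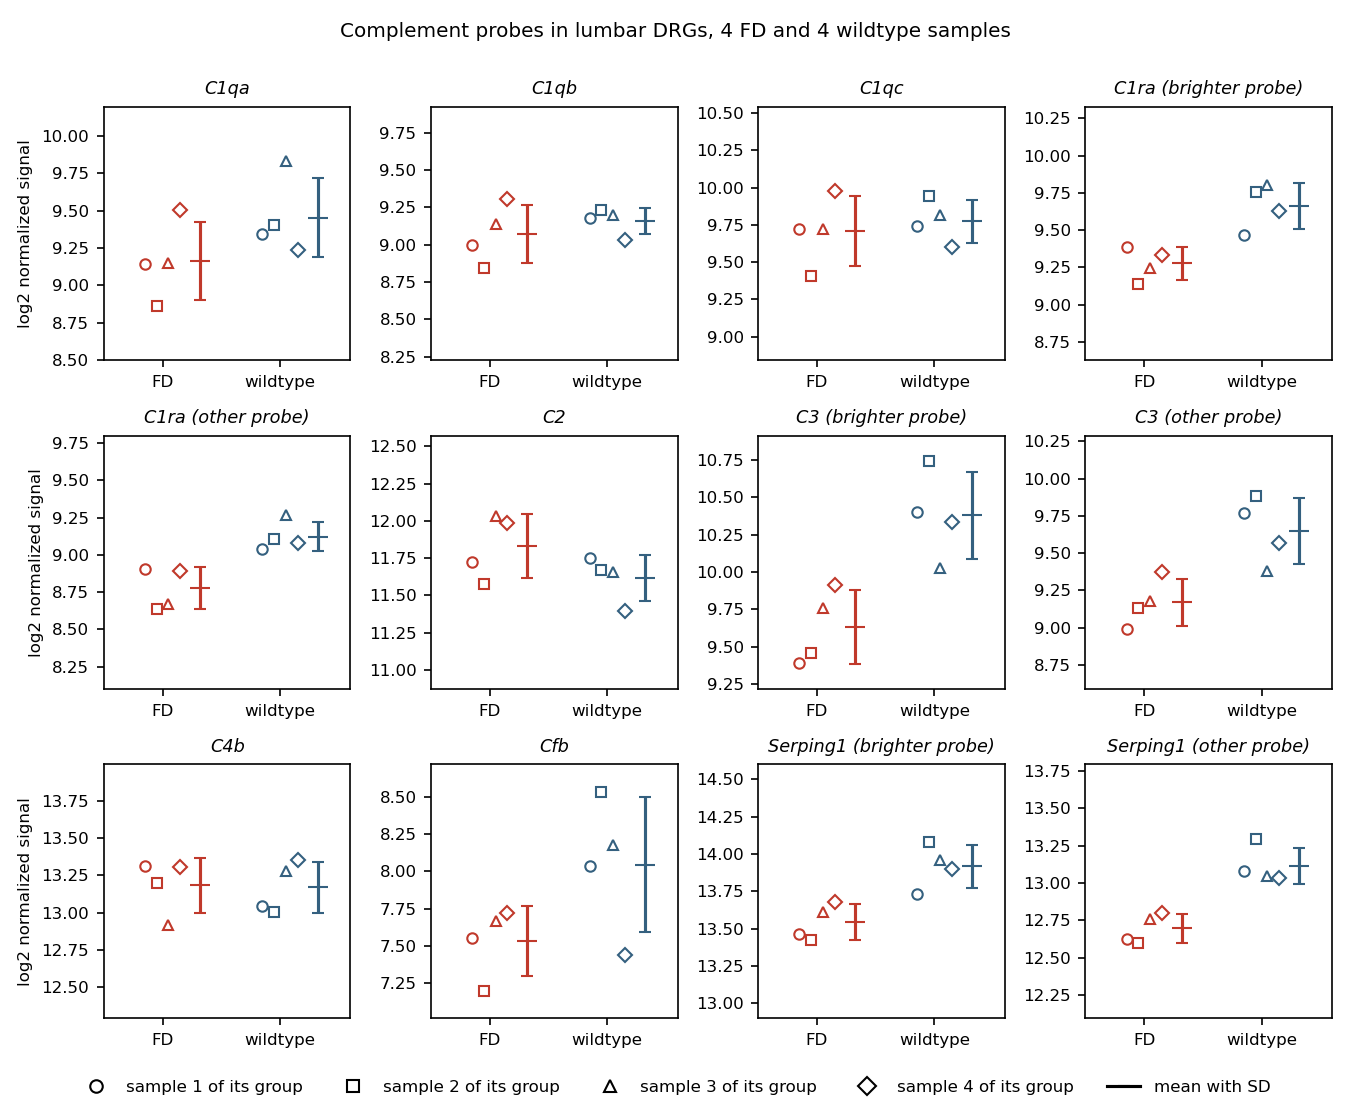
Log2 normalized signal of each of the 12 probes of the 9 genes (vertical axes, each spanning the same 1.7 log2 units) in FD samples (left, red) and wildtype samples (right, blue). The symbols mark the sample number within its group, and bars give the mean with SD over 4 samples. On both probes of C1ra, C3 and Serping1 the groups do not overlap.

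The 3 genes whose groups did not overlap are shown with the 60-base sequence of the less bright of their 2 probes, which for Serping1 is the called one. The counts of genes rest on the brighter probes, which are given by position with their values. Coordinates are those of the files on mm9, all 3 sequences read 5′ to 3′ as the files give them, and exons of mm9 were not used here.
Serping1 (chr2:84605968-84607474, minus strand): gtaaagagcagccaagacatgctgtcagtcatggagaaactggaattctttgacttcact
C1ra (chr6:124472674-124472733, plus strand): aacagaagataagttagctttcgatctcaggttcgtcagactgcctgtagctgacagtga
C3 (chr17:57343678-57343737, minus strand): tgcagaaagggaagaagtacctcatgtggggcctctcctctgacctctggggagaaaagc
The Serping1 probe covered 1507 bases of the genome with 60 bases of sequence, while the C1ra and C3 probes matched 60 bases each without a gap. The files tie each of the 3 probes to a RefSeq transcript of its own gene. C1ra has a near-identical copy, C1rb, and whether C1rb transcripts bound the C1ra probes was not tested.

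Serping1, which encodes the serpin that inactivates C1r and C1s, was measured by 2 probes. The probe printed above gave log2 signals of 12.63, 12.60, 12.76 and 12.80 in FD samples 1 to 4, against 13.08, 13.29, 13.05 and 13.03 in wildtype samples 1 to 4. All FD samples lay below all wildtype samples, and wildtype 2 was the highest of the 8. This probe fell by 0.42 on the log2 scale (SE 0.0798, 95% interval -0.60 to -0.24), a 1.34-fold difference, with an adjusted p of 0.0294 in limma. The brighter probe (chr2:84605663-84605722) gave 13.46, 13.42, 13.61 and 13.68 in FD samples, against 13.73, 14.08, 13.96 and 13.90 in wildtype samples. Its groups did not overlap either, but FD 4 and wildtype 1 were close. Its log2 fold change was -0.37 (SE 0.0909, 95% interval -0.58 to -0.17), with an adjusted p of 0.0672 in limma. As the brighter probe stands for the gene under the rule used here, Serping1 counted as not called, and the call of its other probe was lost in 11 of 21 alternatives. These included leaving out any 1 of the 4 FD samples, wildtype 3 or wildtype 4, with adjusted p-values of 0.0510 to 0.0989 in limma, while without wildtype 1 the brighter probe was called, at -0.44 and an adjusted p of 0.0347 in limma.

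C1ra encodes the protease C1r, which C1 inhibitor acts upon. Its brighter probe (chr6:124473052-124473111) gave log2 signals of 9.39, 9.14, 9.25 and 9.33 in FD samples, against 9.46, 9.75, 9.80 and 9.63 in wildtype samples. The lowest wildtype sample, wildtype 1, was near the highest FD sample, FD 1. The log2 fold change was -0.38 (SE 0.0900, 95% interval -0.59 to -0.18), a 1.31-fold difference, with an adjusted p of 0.0598 in limma. The probe printed above gave 8.90, 8.64, 8.67 and 8.89 in FD samples and 9.04, 9.10, 9.26 and 9.08 in wildtype samples. The groups again did not overlap, and its log2 fold change of -0.35 (SE 0.0845, 95% interval -0.54 to -0.16) had an adjusted p of 0.0672 in limma. Without wildtype 1, the brighter probe was called, at a log2 fold change of -0.45 and an adjusted p of 0.0264 in limma.

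The 3 chains of C1q, the recognition molecule made largely by macrophages and microglia, lie next to each other on chromosome 4. C1qa gave log2 signals of 9.15, 8.86, 9.15 and 9.50 in FD samples, against 9.34, 9.40, 9.83 and 9.24 in wildtype samples. FD 4 lay above 3 of the 4 wildtype samples, so the groups overlapped. Its log2 fold change was -0.29 (95% interval -0.66 to 0.08), with an adjusted p of 0.389 in limma. It was -0.16 without wildtype 3, -0.19 without FD 2 and -0.13 without wildtype 2 and 3. C1qb gave 8.999, 8.84, 9.14 and 9.30 in FD samples, against 9.18, 9.23, 9.20 and 9.03 in wildtype samples. C1qc gave 9.72, 9.41, 9.72 and 9.98 in FD samples, against 9.74, 9.94, 9.81 and 9.60 in wildtype samples. On both probes, FD samples held the lowest value, FD 2, and the highest, FD 4. The log2 fold change of C1qb was -0.09 (95% interval -0.32 to 0.14), with an adjusted p of 0.686 in limma. That of C1qc was -0.07 (95% interval -0.35 to 0.21), with an adjusted p of 0.812 in limma. Without FD 2, that of C1qb was -0.01 and that of C1qc 0.03. A difference in C1qb or C1qc above about 0.35 log2 units in either direction lay outside both intervals.

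C4b and C2 encode the substrates of the C1 proteases. The C4b probe (chr17:34865328-34865387) is tied by its accessions to both C4b and C4a, so these 2 genes cannot be told apart here. It gave log2 signals of 13.31, 13.20, 12.92 and 13.31 in FD samples, against 13.04, 13.002, 13.28 and 13.35 in wildtype samples. The samples of both groups were interleaved, with a log2 fold change of 0.02 (95% interval -0.24 to 0.27) and an adjusted p of 0.958 in limma. C2 (chr17:34999575-34999634) gave 11.73, 11.58, 12.03 and 11.99 in FD samples, against 11.75, 11.67, 11.66 and 11.40 in wildtype samples. FD 3 and FD 4 were the 2 highest samples and wildtype 4 the lowest, while FD 1 and FD 2 lay among the wildtype samples. C2 and C4b were the 2 members with a positive log2 fold change, which for C2 was 0.21 (95% interval -0.06 to 0.48), with an adjusted p of 0.395 in limma. Without wildtype 4 it was 0.14.

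C3, on whose cleavage all complement pathways converge, had the most negative log2 fold change of the members. Its brighter probe (chr17:57343416-57343475), printed in 10 spots per array, gave log2 signals of 9.39, 9.46, 9.76 and 9.91 in FD samples, against 10.40, 10.74, 10.03 and 10.34 in wildtype samples. FD 4 and wildtype 3 were the samples nearest to each other, and the SD over the 10 spots of 1 array was between 0.0325 and 0.107 log2 units. The log2 fold change was -0.75 (SE 0.166, 95% interval -1.12 to -0.37), a 1.68-fold difference, with an adjusted p of 0.0506 in limma. The probe printed above gave 8.99, 9.13, 9.18 and 9.38 in FD samples and 9.77, 9.88, 9.38 and 9.57 in wildtype samples. FD 4 and wildtype 3 were equal to 2 decimals, and the log2 fold change was -0.48 (SE 0.122, 95% interval -0.76 to -0.20), with an adjusted p of 0.0771 in limma. Without wildtype 3, the brighter C3 probe was called, at a log2 fold change of -0.86 and an adjusted p of 0.0355 in limma.

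Cfb, which encodes factor B of the alternative pathway, had the widest spread of the member probes among wildtype samples (SD 0.45 log2 units). It gave log2 signals of 7.55, 7.20, 7.67 and 7.72 in FD samples, against 8.03, 8.53, 8.17 and 7.44 in wildtype samples. Of the wildtype samples 3 lay above all FD samples, and wildtype 4 lay below 3 of the 4 FD samples. The log2 fold change was -0.51 (SE 0.217, 95% interval -1.004 to -0.02), with an adjusted p of 0.268 in limma.

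**Figure D2:**
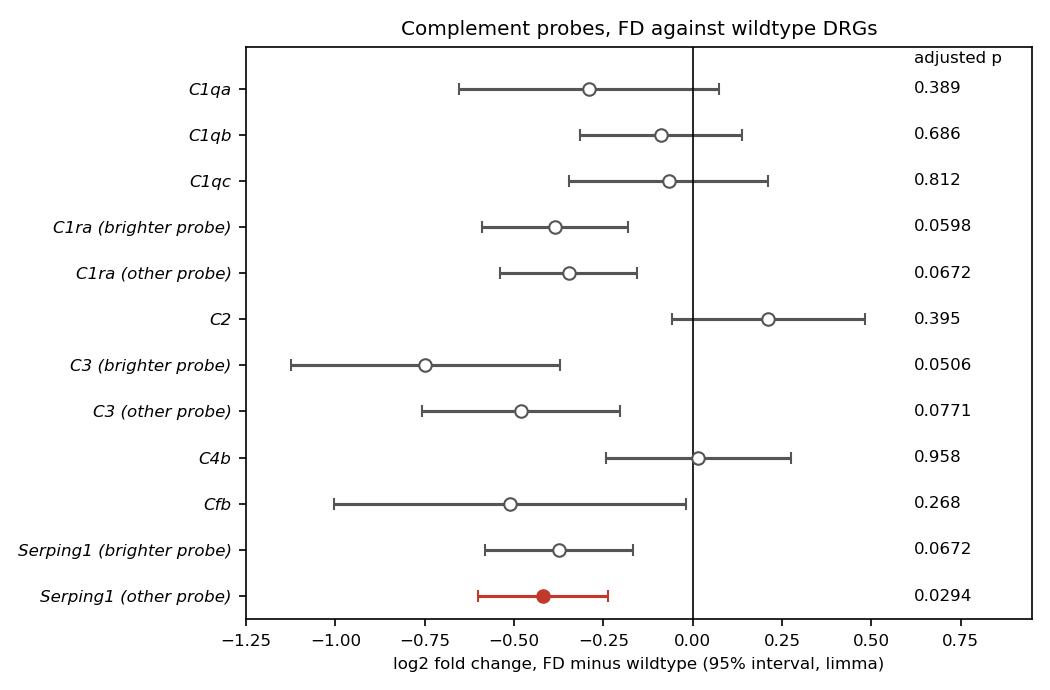
Log2 fold change of each of the 12 probes (FD minus wildtype, horizontal axis) with its 95% interval from limma, and the adjusted p beside it. The filled red point marks the 1 called probe, of Serping1, at -0.42, and the intervals of C2, C4b and the 3 C1q chains include 0.

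The methods used a p limit of 0.01 without adjustment together with a minimum 1.2-fold difference, and under these criteria C1ra, C3 and Serping1 passed as lower, by 6 of the 12 probes with the p of limma and by 5 with the methods' t-test. Among all tested probes, 2.36% passed as lower with the p of limma and 1.32% with the methods' t-test. Under array weights and under another background correction, normexp, the same 3 genes were called, whereas 0 members were called with the replicate number or the slide row as a block.

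**Figure D3:**
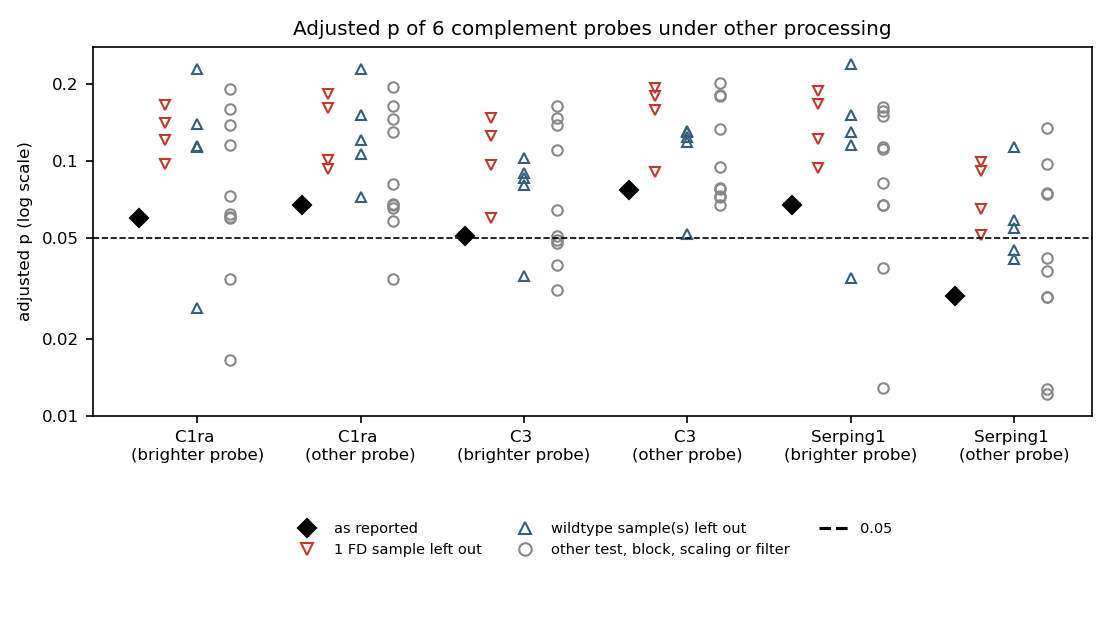
Adjusted p (vertical log axis) of both probes of C1ra, C3 and Serping1 as reported (diamonds), with FD samples or wildtype samples left out (triangles) and under other tests, blocks, scalings or filters (circles). The dashed line marks 0.05, and each of the 6 probes but the other C3 probe has values on both sides of it.

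The 8 arrays lay in 2 rows of the slide, with FD 1 to FD 3 and wildtype 1 in row 1 and FD 4 with wildtype 2 to 4 in row 2, so that each row held 1 sample of one group. The C3 difference of the brighter probe was -0.87 in row 1 and -0.46 in row 2. For C1ra it was -0.21 in row 1 and -0.39 in row 2, and for Serping1 -0.23 in row 1 and -0.30 in row 2. These 3 genes were thus lower in FD DRGs in both rows. In contrast, C1qa, C1qb and C1qc had differences of -0.29, -0.18 and -0.12 in row 1 and of 0.01, 0.15 and 0.19 in row 2.

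Of 45 other complement genes on the array, 27 were tested, of which 1 was called in limma and 0 after adjustment in the methods' t-test, with 12 and 10 at an unadjusted p under 0.05. Over all gene names, 17.7% had an unadjusted p under 0.05 in limma and 15.2% in the methods' t-test, in either direction. With limma, C8g, which encodes the gamma chain of the terminal component C8, rose. It gave log2 signals of 8.98, 8.96, 9.05 and 9.17 in FD samples, against 8.497, 8.71, 8.78 and 8.66 in wildtype samples. The groups did not overlap, and the log2 fold change was 0.38 (SE 0.0791, 95% interval 0.20 to 0.56), with an adjusted p of 0.0429 in limma. The other, less bright C8g probe was at 0.34 and was not called, with an adjusted p of 0.0620 in limma. Without any 1 sample other than wildtype 1, 0 of the 27 genes were called, and without wildtype 1, 2 were. Among the 8 tested genes of recognition, proteases and amplification 7 were negative, with a median of -0.30 and 0 called in limma, while 7 had an unadjusted p under 0.05, 6 of them negative (7.11% of all gene names were lower at that limit). C1s1, the partner protease of C1r, gave 9.54, 9.22, 9.45 and 9.62 in FD samples and 9.72, 9.93, 10.03 and 9.96 in wildtype samples, a log2 fold change of -0.46 with an adjusted p of 0.0510 in limma. Next by p were Colec11, a soluble lectin, at -0.26 (adjusted p 0.0918 in limma) and C1s2, a second C1s gene of the mouse, at -0.34 (adjusted p 0.110 in limma).

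The 11 tested regulators had a median log2 fold change of -0.02, with 6 negative and 0 called in limma (3 at an unadjusted p under 0.05). The 3 with the smallest p were Cfi, the protease factor I, at 0.35, Vtn, vitronectin, at -0.25, and Cfhr2, a factor H-related gene, at -0.23, with adjusted p-values of 0.176, 0.209 and 0.213 in limma. The 6 tested receptors had a median of -0.08 and 0 called in limma (1 at an unadjusted p under 0.05). Cr2, the receptor for C3 fragments on B cells, was at 0.46, with an adjusted p of 0.0618 in limma, and after it came Itgax, an integrin subunit of a receptor for C3 fragments, at -0.19 and C5ar2, a receptor for C5a, at -0.12, with adjusted p-values of 0.405 and 0.484 in limma. The genes not well above background on all arrays included 5 of the 7 terminal components (C6, C7, C8a, C8b and C9) and the anaphylatoxin receptors C3ar1 and C5ar1.

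**Figure D4:**
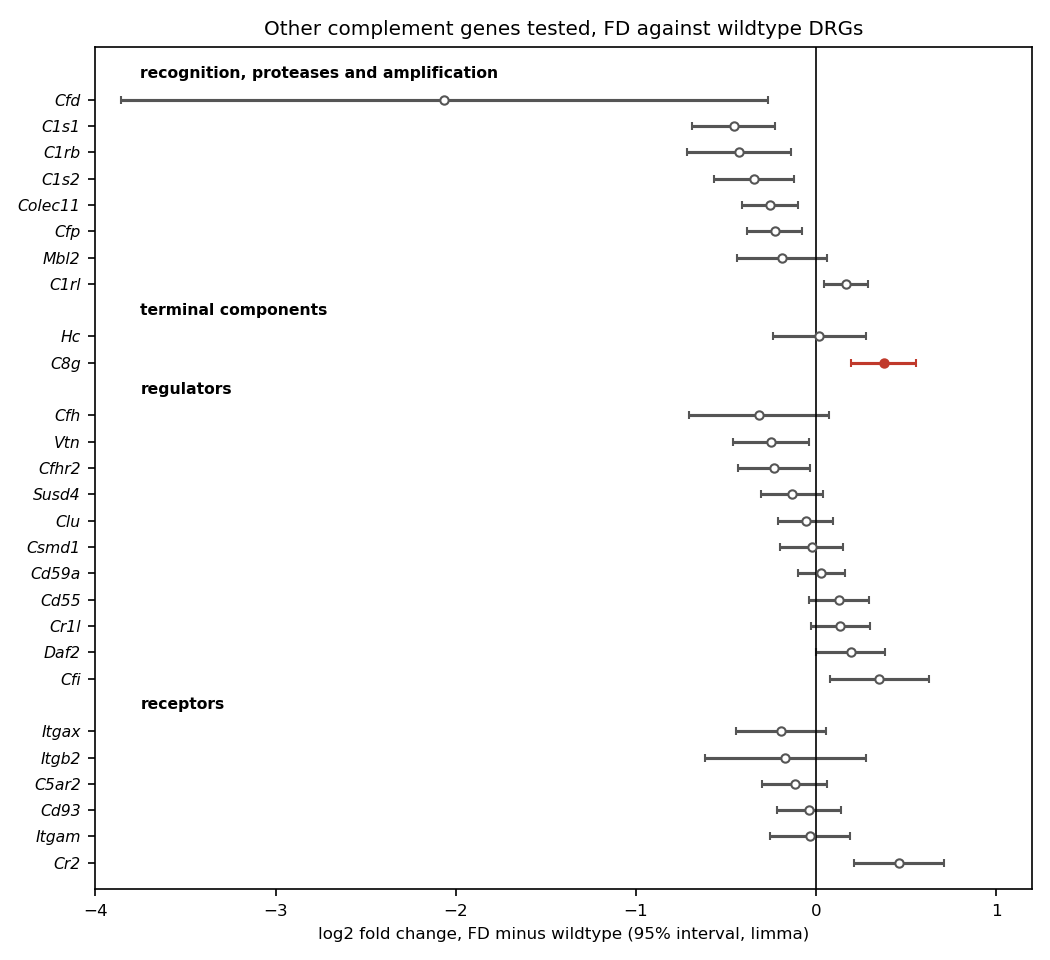
Log2 fold change (FD minus wildtype, horizontal axis) with 95% interval from limma of the 27 other complement genes tested, grouped by role. The filled red point marks the 1 called gene, C8g, at 0.38. Cfd has the widest interval, from -3.86 to -0.27.

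Cfd, which encodes factor D (adipsin), the protease that cleaves factor B and a product of fat cells, set wildtype samples 2 and 3 apart. It gave log2 signals of 7.25, 6.09, 6.88 and 6.59 in FD samples, against 7.90, 10.56, 9.98 and 6.61 in wildtype samples. Its log2 fold change was -2.06 (95% interval -3.86 to -0.27), with an adjusted p of 0.221 in limma. Of 7 adipocyte markers looked up after Cfd was seen, measured by 9 probes, 6 probes were higher in wildtype 2 and wildtype 3 than in the other 6 samples. Adipoq was well above background in these 2 samples only, Plin1 likewise, and Lep in 0 samples. With both samples left out, the C3 log2 fold change of the brighter probe was -0.74 (adjusted p 0.0856 in limma), while that of Cfb was -0.20. By their brighter probes, that of C1ra was -0.27 and that of Serping1 -0.27, with adjusted p-values of 0.230 and 0.242 in limma. The less bright probes were at -0.50 for C3, -0.29 for C1ra and -0.36 for Serping1. This Serping1 probe, called with all samples, was not called without these samples (adjusted p 0.114 in limma).

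Markers of other cell types of the ganglion were set beside these values. Of the 57 tested genes of the 9 marker lists 0 were called in limma and 0 after adjustment in the methods' t-test, with 13 and 9 at an unadjusted p under 0.05, against 17.7% and 15.2% of all gene names. Signals of each list were summed before the log2, so bright genes weigh most. The summed signal of 8 fibroblast and meningeal markers was 16.73 to 16.94 in FD samples and 16.96 to 17.21 in wildtype samples. All 8 had a negative log2 fold change, with a median of -0.10. By the brightest probe of each gene, only Dcn, the brightest of this list, had groups that did not overlap. The summed signal of 7 Schwann cell and myelin markers was 16.92 to 17.06 in FD samples and 17.09 to 17.22 in wildtype samples. All 7 were negative, with a median of -0.19. Both sums, like the C1ra, C3 and Serping1 probes, were lower in each FD sample than in each wildtype sample, and their part in these results was not tested. Of the 11 macrophage markers 8 were negative, with a summed signal of 13.01 to 13.47 in FD samples and 13.20 to 13.58 in wildtype samples. All 10 sensory neuron markers were well above background, 5 of them negative, and 4 of 5 hepatocyte markers, Alb among them, were not.

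In each list, the gene with the smallest p was taken. These included Dcn, a proteoglycan of fibroblasts, at -0.29 on the log2 scale (adjusted p 0.0806 in limma), Mbp, a myelin protein, at -0.19 (adjusted p 0.149 in limma) and Flt1, a receptor of endothelium, at -0.36 (adjusted p 0.162 in limma). Cd68, a lysosomal protein of macrophages, was at 0.51 (adjusted p 0.0573 in limma), and Avil, an actin-binding protein of sensory neurons, at -0.27 (adjusted p 0.0565 in limma). For Mpo, Cd79b, Glul and Serpina1a, the smallest p of their lists, the adjusted p in limma lay between 0.365 and 0.610.

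As the colonies were bred apart, genes near the members were counted, by any of their probes. Within 1 Mb of the C2 probe 8 of 110 tested genes were called, and the same 8 lay near C4b and Cfb, in the major histocompatibility complex region of chromosome 17. Over all gene names, 3.85% were called in limma by any probe and 1.17% in the methods' t-test after adjustment. That test called 1 gene near C2, C4b and Cfb, Gtf2h4. Gtf2h4, a subunit of a general transcription factor, was at -0.42 and Neu1, a lysosomal sialidase, at 0.43, with adjusted p-values of 0.00478 and 0.00644 in limma. The next 2 by the p of limma were unnamed transcripts on both strands of 1 locus, at 0.40 and 0.39. Of the 8 genes called in limma, 5 were lower in FD DRGs and 3 higher. Near each C1q gene 1 of 44 was called in limma, an unnamed transcript at -0.81, and 0 in the methods' t-test after adjustment. Near C3 1 of 44 was called in both tests, Catsperd, a sperm channel subunit, at 0.25 on the log2 scale. Near C1ra 0 of 46 and near Serping1 0 of 27 were called in limma or in the methods' t-test after adjustment. At an unadjusted p under 0.05 in limma, 7 near C1ra and 9 near Serping1 passed. Those near C1ra included C1s1, C1s2 and C1rb, lower in FD DRGs, and C1rl, higher. These genes were also among the other complement genes counted above, so the counts are not separate. The same limit was passed by 29 of 110 near C2, 29 of 113 near C4b and 27 of 109 near Cfb. It was passed by 8 of 44 near C3 and 6 of 44 near each C1q gene. Among all gene names 17.7% passed it, by the brightest probe rather than by any probe.

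Promoter windows of RefSeq (GRCm38.p6, 250 bases before and 50 after the start) matched 4 members, C1qb, C1qc, C1ra and C3. The motif TTCNNNGAA, searched on both strands, was found in 1 of the 4, C1ra, and in 8.3% of all windows. GAAANNGAA and GGGNNTTCC were found in 0 of the 4, and in 8.56% and 5.82% of all windows. These are matches of letters only.

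Gla, the disrupted gene, gave log2 signals of 16.71, 16.51, 16.51 and 16.62 in FD samples, against 16.69, 16.72, 16.49 and 16.56 in wildtype samples. Its groups overlapped, with a log2 fold change of -0.03. The files do not say whether its probe lies in a part of the transcript that the mutant lacks, so it does not check the labels.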

How the data were processed

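RNA of 8 DRG samples was hybridized to the 8 arrays of 1 slide. The deposited intensity values were made by the authors with Agilent Feature Extraction 10.7.3.1, which adjusted the background (version and build mm9 per the file headers). The authors' deposited log2 values, quantile normalized in GeneSpring, served as an alternative. Control spots and outlier spots (93 to 221 per array) were left out. Log2 signals were averaged per probe and quantile normalized, and probes well above background on all 8 arrays (at least 0.5 of their spots) were compared with limma 3.58.1 in R 4.3.3, with Benjamini-Hochberg adjustment over 29432 probes. The methods' t-test left out 1 probe, the same on all arrays after normalization. The fit was tested on simulated data. The number of arrays limits the precision, and p-values measure the spread between pools.

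Members and lists were chosen with earlier results of these data known. Named genes are all members, called genes or up to 3 of each complement list by p, up to 4 called neighbours, the first gene by p of each marker list, and Gla. C1rb and C1rl were named for lying near C1ra. Adipocyte markers and the fit without wildtype 2 and 3 were added after seeing the data. Replicate numbers did not pair samples (correlations of deviations -0.25 to 0.06). Sequences of promoters are from RefSeq.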

Additional observations from a re-analysis of the deposited data

How the results depend on the processing

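No gene among the 9 members was called under the methods' t-test after adjustment, a looser filter on dim probes, no filter, the authors' processed values or the slide row as a block. With the criteria of the methods, 3 were called with the p of limma and 3 with the methods' t-test, each lower in FD DRGs. Array weights gave 3 and normexp background correction gave 3, and 1 was called under 75th percentile scaling, 1 with outlier spots kept and 1 by the median of a gene's probes. Leaving out 1 sample in turn gave 0 to 2 called members, 0 to 2 other complement genes and 414 to 1038 called probes. With the replicate block, 0 members, 0 other complement genes and 284 probes were called, though replicate numbers did not pair the samples.

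Over all tested probes, 266 were called under the methods' t-test, 1774 under the criteria of the methods with the p of limma, 2102 with array weights, 556 without a filter and 441 without wildtype 2 and 3, against 904. Other complement genes called numbered 0 under the methods' t-test, the looser filter, no filter and without wildtype 2 and 3, 2 with the slide row as a block and by the median of a gene's probes, 3 under normexp and the criteria of the methods with the methods' t-test, and 5 under array weights and those criteria with the p of limma. Within 0.5 Mb of a member 6 genes were called and within 2 Mb 25, against 10 within 1 Mb. In the 250 bases before the start alone, 0 promoter motifs were found in members' windows, against 1.

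Over 12 probes and 21 alternatives, 211 values kept their direction and side of the threshold, 21 passed it newly, 11 lost it and 9 changed sign. C1qc turned positive with the slide row as a block (0.0336), without wildtype 2 and 3 (0.0368) and without FD 2, with a range of -0.157 to 0.0331 when 1 sample was left out. C4b turned negative with array weights (-0.0445) and without wildtype 2 and 3 (-0.0129), and ranged from -0.0399 to 0.104 when 1 sample was left out. The causes were not tested.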
